A study of Homo sapiens with 6 samples.

Results

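The genes described here are those of the mitochondrial ribosomal proteins: the 77 gene symbols of the form MRPL or MRPS with a number, of 27852 symbols in the table. There were 48 MRPL genes, named for the large subunit, and 29 MRPS genes, named for the small subunit. They were chosen by symbol alone, and all 77 passed the filter on low counts, which left 13236 genes to test. MRPL45 was not analysed here. RNA came from HSC3, HSC4 and SAS cells, established lines of human oral squamous carcinoma (3 lines), which had been kept in DMEM, a classical synthetic medium, or in HPLM, a medium whose salts and polar metabolites are set near those of human plasma. Both media held heat-inactivated fetal bovine serum and an antibiotic-antimycotic mix, and no line carried a stated genetic change or drug treatment. Each line gave 1 polyadenylated RNA library per medium, so 3 HPLM libraries were compared with 3 DMEM libraries, paired by line. No label names separate cultures of 1 line, so p-values for the medium measure how alike its difference was over the 3 lines, and p-values between lines measure how alike a difference was over the 2 media. The table's columns used for DMEM name the line and no medium.

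Mitochondrial ribosomes translate the few messenger RNAs that mitochondrial DNA encodes, all of them for subunits of the respiratory chain and ATP synthase. Their RNA comes from mitochondrial DNA, while every one of their proteins is encoded in the nucleus, made in the cytosol and imported, so that genes scattered over many chromosomes have to supply 1 particle. Many of the proteins have a counterpart in bacterial ribosomes and others do not. A few symbols do not tell the position of the protein: MRPS18A and MRPS30 sit in the large subunit, and MRPS36 is now assigned to the oxoglutarate dehydrogenase complex. Genes of the mitoribosome are known for housekeeping promoters with sites for ETS-family factors, YY1 and NRF1.

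Depth lay between 17715962 and 20171750 estimated counts per library. All levels below are CPM (an estimated count as a share of its TMM-scaled library, on the usual scale) of scaled TPM, which are already divided by transcript length, so that levels of different genes can be compared. The 8 epithelial markers summed to between 3422 and 5939 CPM. The 7 fibroblast markers summed to between 1.78 and 5.97 CPM, the 6 leukocyte markers to between 2.80 and 5.34 CPM and the 4 endothelial markers to between 0.308 and 2.49 CPM.

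Promoters were searched for letter runs that are more frequent in these scattered genes than in others. RefSeq promoters (GRCh38.p14, 250 bases before to 50 bases after the start) matched 68 of the 77 members by symbol. Exact letter runs were searched on both strands: CCGGAAG for ETS factors, AAGATGGC for YY1, GCGCATGC for NRF1, CACGTG for the E-box, CCAAT for the CCAAT box, GGGCGG for the GC box and TATAAA for the TATA box. The last 3 letters of the ETS run are the first 3 of the YY1 run, so the runs can overlap. The ETS run was in 42.6% of the members' promoters, against 19.4% of the promoters of tested genes and 10.7% of all 27305 promoters. For the YY1 run the shares were 27.9%, 5.39% and 3.03%, and for the NRF1 run 8.82%, 5.46% and 3.27%. Of the 68 members, 8 had both the ETS and the YY1 run and 28 had neither. The YY1 run lay after the start in 14 members, 20.6%, against 3.56% of tested genes. The GC box was in 60.3% of members and 70.1% of tested genes, the CCAAT box in 29.4% and 36.6%, the E-box in 7.35% and 9.95%, and the TATA box in 2.94% and 5.81%. MRPL and MRPS promoters held the ETS run in 41.5% and 44.4% and the YY1 run in 26.8% and 29.6%, so the symbol families looked alike in these 2 runs. The GC box was in 53.7% of MRPL and 70.4% of MRPS promoters, and the CCAAT box in 26.8% and 33.3%. The E-box was in 9.76% and 3.7%, and the NRF1 run in 9.76% and 7.41%. These differences were not tested.

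The 6 promoter stretches printed next belong to members on which the results below turn. MRPL33, MRPL42 and MRPS18B are among the members with the smallest p for the medium, MRPS10 and MRPS18A lie in 1 cluster on chromosome 6, and MRPL46 shares a start region with MRPS11. Capitals mark the ETS, YY1 and NRF1 runs, on either strand. Each stretch reads 5′ to 3′ on the gene's own strand.
MRPL33 (chr2:27771659-27771748, plus strand): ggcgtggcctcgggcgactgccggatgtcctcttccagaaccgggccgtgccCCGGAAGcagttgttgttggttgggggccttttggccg
MRPL42 (chr12:93467454-93467543, plus strand): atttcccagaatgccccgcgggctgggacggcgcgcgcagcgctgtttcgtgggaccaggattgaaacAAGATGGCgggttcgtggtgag
MRPS18B (chr6:30617780-30617859, plus strand): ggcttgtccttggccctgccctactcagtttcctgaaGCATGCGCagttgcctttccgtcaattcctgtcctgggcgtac
MRPS10 (chr6:42217832-42217921, minus strand): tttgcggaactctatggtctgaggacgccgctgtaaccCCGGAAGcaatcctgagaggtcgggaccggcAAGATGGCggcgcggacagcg
MRPS18A (chr6:43687762-43687851, minus strand): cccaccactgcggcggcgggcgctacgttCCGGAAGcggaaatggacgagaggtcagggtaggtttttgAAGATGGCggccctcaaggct
MRPL46 (chr15:88467359-88467448, minus strand): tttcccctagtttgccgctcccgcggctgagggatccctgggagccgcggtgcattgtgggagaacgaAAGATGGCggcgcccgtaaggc
In MRPL42, MRPL46, MRPS10 and MRPS18A the YY1 run begins 9 or 10 bases after the start, and in MRPS18B a YY1 run begins 24 bases after it, beyond the stretch shown. MRPS10 and MRPS18A carry the ETS run before the start as well. A match is a run of letters and was not tested as a site of binding. Members with and without the ETS run had median HPLM over DMEM log2 fold changes of 0.04 (29 members) and 0.07 (39 members), and members with and without the YY1 run of 0.13 (19 members) and 0.06 (49 members).

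All 77 members were above 0 in all 6 libraries, and their levels spanned more than an order of magnitude. Among MRPL genes the mean over the 6 libraries ran from 12.9 CPM for MRPL50 to 365 CPM for MRPL51, with a median of 106 CPM. Among MRPS genes it ran from 20.6 CPM for MRPS21 to 456 CPM for MRPS24, with a median of 84.4 CPM. MRPS24, the counterpart of a bacterial small-subunit protein, was at 436, 567 and 320 CPM in DMEM and at 494, 542 and 376 CPM in HPLM in HSC3, HSC4 and SAS, and it was highest in HSC4 and lowest in SAS in both media. MRPL51 was at 425, 270 and 351 CPM in DMEM and at 446, 288 and 411 CPM in HPLM, and was lowest in HSC4. After MRPL51 came MRPL52, with a mean of 309 CPM, and MRPL12, with 268 CPM, a protein also known to bind the mitochondrial RNA polymerase. After MRPS24 came MRPS15, with a mean of 241 CPM, and MRPS16, with 170 CPM. MRPS15 was among the steadiest members, between 224 and 256 CPM in the 6 libraries.

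At the low end MRPL50 lay between 10.6 and 14.8 CPM in every library. MRPL44, a protein with a ribonuclease fold, had a mean of 34.2 CPM and MRPL1 of 36.2 CPM. The lowest MRPS genes were MRPS21, MRPS14, with a mean of 25.9 CPM, and MRPS36, with 30.3 CPM. Among the 3 paralogs of bacterial S18, MRPS18B had a mean of 166 CPM, MRPS18C of 86.3 CPM and MRPS18A of 63.4 CPM. MRPS12, the counterpart of the bacterial decoding protein S12, had a mean of 84.4 CPM, and MRPL58, a subunit with peptidyl-tRNA hydrolase activity, of 73.0 CPM. The spread over libraries was modest for most: the highest library was a median of 1.72 times the lowest for MRPL genes and 1.86 times for MRPS genes. So neighbours in the order of levels often overlapped, while the top and the bottom of the order did not.

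**Figure D1:**
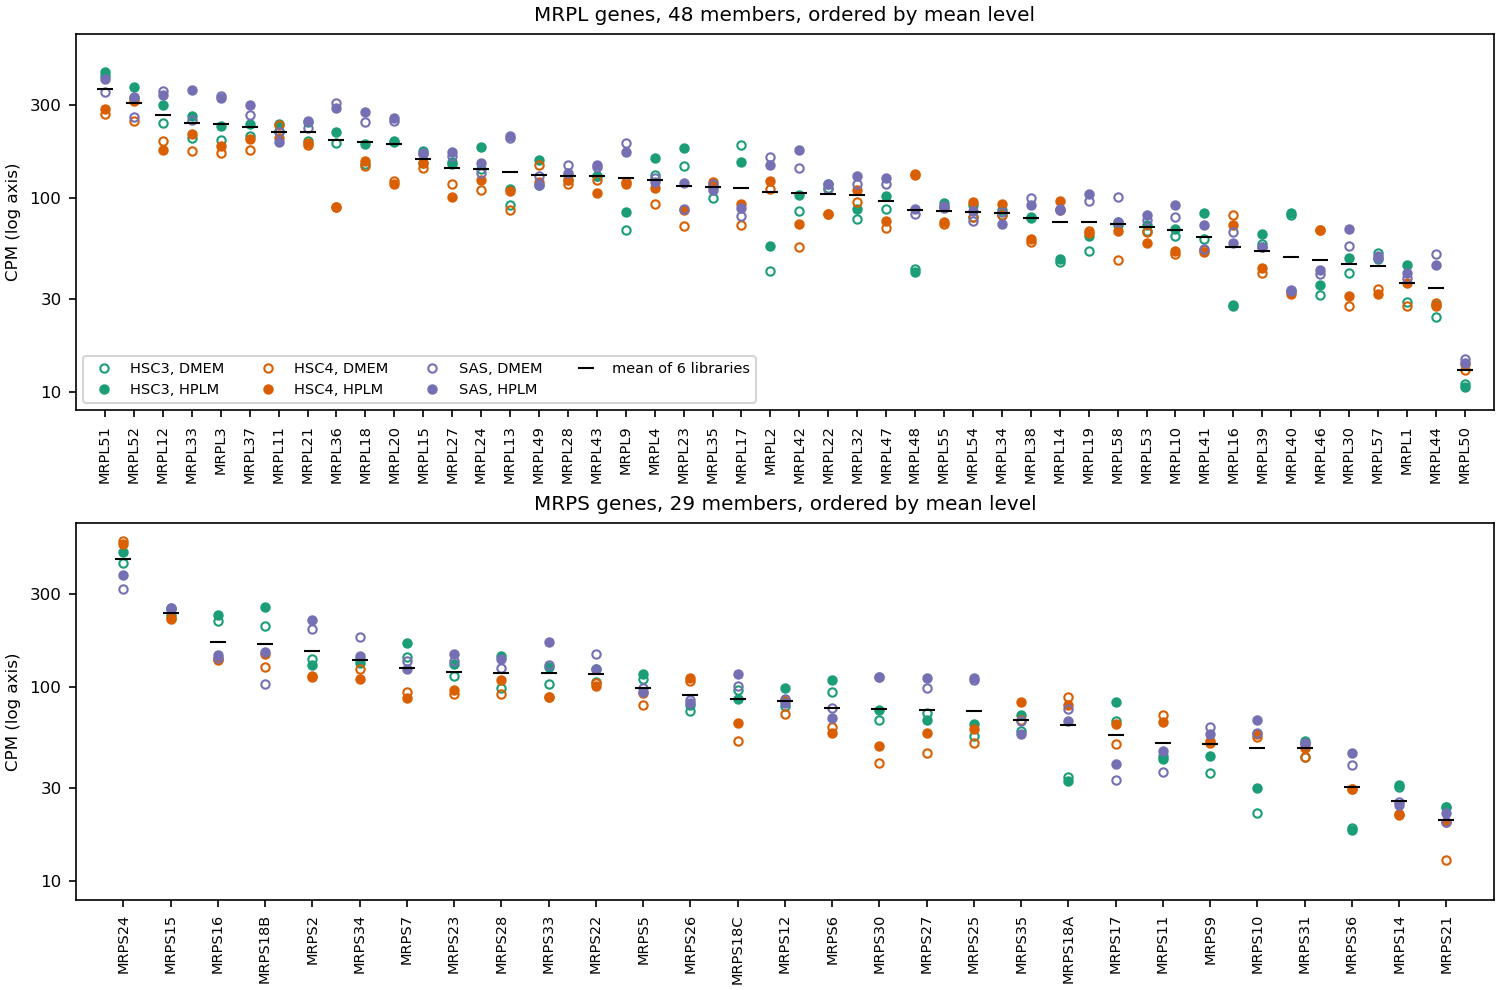
Level of each of the 48 MRPL and 29 MRPS genes in the 6 libraries, in CPM on a log axis, with members ordered by their mean (black bar). Open points are DMEM and filled points HPLM, coloured by line; the points of most members lie close together, and MRPL2, MRPL36, MRPL48 and MRPS10 are among those spread widely by line.

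Summed over the family, MRPL genes came to 5584, 4902 and 6747 CPM in DMEM and to 6338, 5164 and 7080 CPM in HPLM in HSC3, HSC4 and SAS. MRPS genes came to 2969, 2775 and 3109 CPM in DMEM and to 3325, 2861 and 3260 CPM in HPLM. Both sums of these TMM-scaled levels were higher in HPLM in each line and lowest in HSC4. The MRPL sum was highest in SAS in both media, whereas the MRPS sum in HPLM was highest in HSC3. As a share of the library, in which the scaling factors cancel, the members made up 0.831% and 0.934% in HSC3 (DMEM, then HPLM). The shares were 0.837% and 0.838% in HSC4 and 0.976% and 0.969% in SAS. By share, HPLM was thus not higher in SAS, and the lowest library was HSC3 in DMEM. Cytosolic ribosomal protein genes summed to between 17.0 and 21.1 times as much as the members.

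By sums and by means per gene, the balance of MRPL to MRPS differed between lines more than between media. The MRPL sum over the MRPS sum was 1.88 and 1.91 in HSC3 in DMEM and HPLM, 1.77 and 1.81 in HSC4, and 2.17 and 2.17 in SAS. With MRPS18A and MRPS30 counted in the large subunit and MRPS36 left out, it lay between 1.92 and 2.02 in the HSC3 and HSC4 libraries and at 2.41 and 2.39 in SAS. Per gene, the mean MRPL level was 1.14 and 1.15 times the mean MRPS level in HSC3, 1.07 and 1.09 times in HSC4, and 1.31 and 1.31 times in SAS. The ratio is given without a test, since it is a score over the members.

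**Figure D2:**
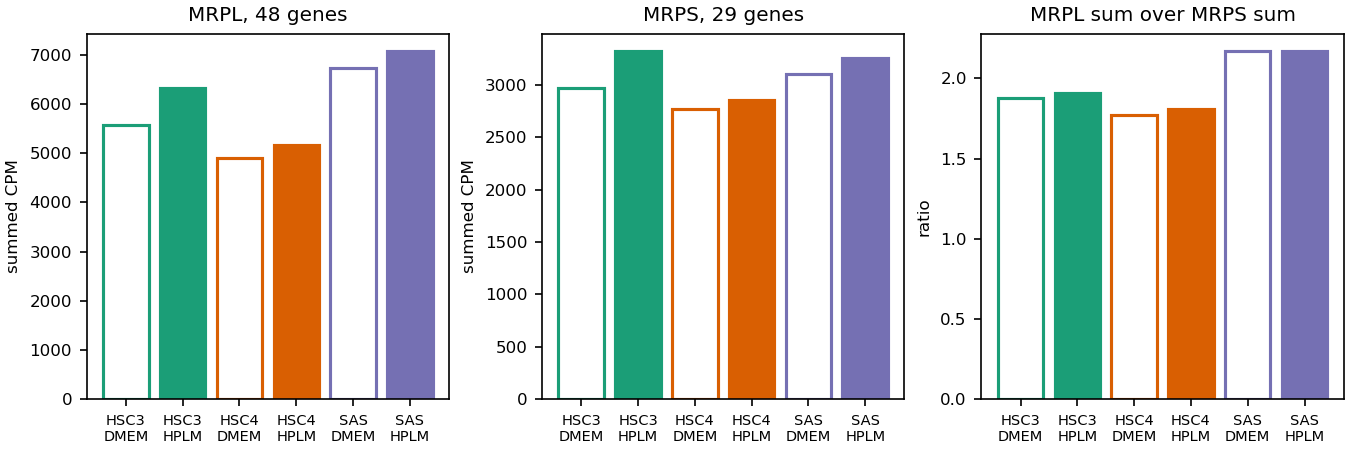
Summed level of the MRPL genes, of the MRPS genes (both in CPM) and the ratio of the sums, in each of the 6 libraries, with open bars for DMEM and filled bars for HPLM. Both SAS libraries have a ratio of 2.17, above the 1.77 to 1.91 of HSC3 and HSC4.

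The first comparison asked whether the family differed between HPLM and DMEM. Most members were somewhat higher in HPLM, but no single member passed the test. The fitted log2 fold change of HPLM over DMEM was above 0 in 39 of 48 MRPL genes and 23 of 29 MRPS genes, with medians of 0.08 and 0.12, against 0.00 over all genes tested. By the edgeR quasi-likelihood test with line and medium as terms and Benjamini-Hochberg adjustment, 0 members were called at an adjusted p under 0.05, where 0.00756% of all genes were called (1 gene). DESeq2 called 1 member, MRPL33 (1.3% of the members, against 0.96% of all genes), and limma-voom called 0 (0.068% of all genes). At an unadjusted p under 0.05 the edgeR test had 8 MRPL and 3 MRPS genes higher, 11 of 77, and 0 lower, against 5.57% of all genes higher and 4.55% lower. Higher in HPLM in all 3 lines were 19 MRPL and 8 MRPS genes, 27 of 77, where 16.9% of all genes were so, and lower in all 3 lines were 0 MRPL and 2 MRPS genes, where 17.0% of all genes were so. The HPLM libraries all lay above the DMEM libraries in 1 member, MRPL54, where 1.41% of all genes did so.

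The size of the difference varied by line. In HSC3 the median log2 ratio was 0.18 for MRPL and 0.18 for MRPS genes, in HSC4 it was 0.07 and 0.06, and in SAS 0.04 and 0.02. Above 0 were 44 MRPL and 21 MRPS genes in HSC3. The counts were 31 and 17 for HSC4, and SAS had 29 and 18. Members with a counterpart in bacteria and those without were similar in the large subunit, with medians of 0.10 (29 genes) and 0.04 (20 genes), and in the small subunit, with 0.07 (16 genes) and 0.13 (10 genes).

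**Figure D3:**
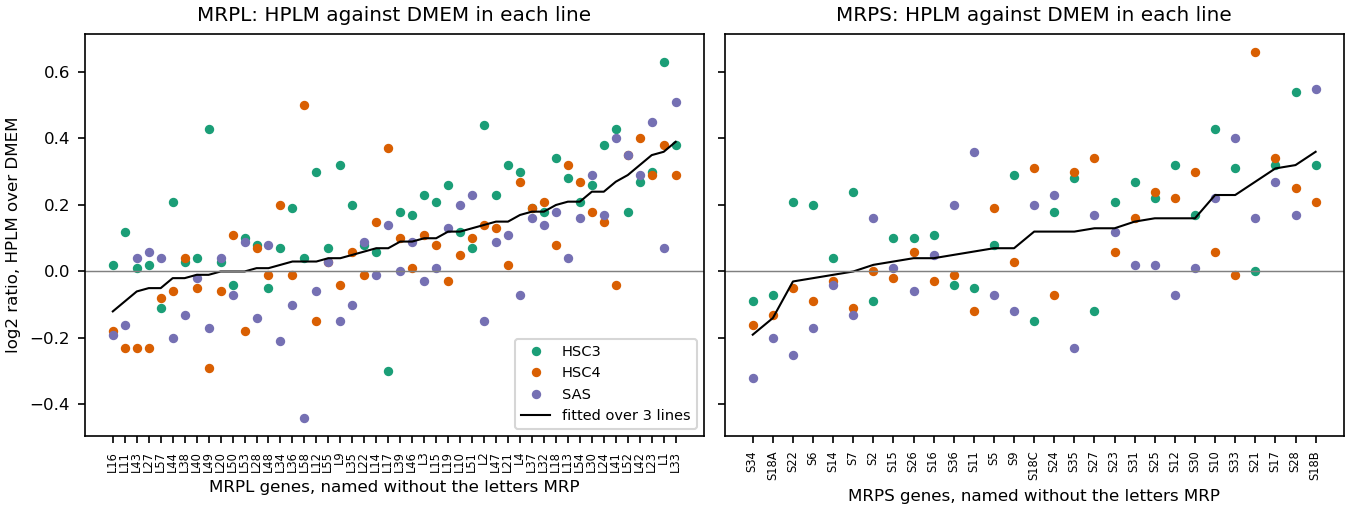
Log2 ratio of HPLM over DMEM in each line (coloured points, 1 library per medium and line) for the MRPL genes and the MRPS genes, with members ordered by the fitted value over 3 lines (black line). Most fitted values lie between 0 and 0.39, and the 3 lines of 1 member often lie on both sides of 0.

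MRPL33, the counterpart of a small bacterial large-subunit protein, had the smallest p of the MRPL genes. It was at 202, 174 and 252 CPM in DMEM and at 263, 213 and 359 CPM in HPLM in HSC3, HSC4 and SAS. Each line was higher in HPLM, while the ranges of the media overlapped because the lines differ. Its log2 fold change was 0.39 ± 0.09 (SE), with an adjusted p of 0.362 by the edgeR quasi-likelihood test. MRPL23 was at 146, 71.1 and 87.1 CPM in DMEM and at 180, 86.8 and 119 CPM in HPLM (0.35 ± 0.09). MRPL42, a subunit without a bacterial counterpart, was at 85.4, 55.6 and 143 CPM in DMEM and at 103, 73.5 and 176 CPM in HPLM (0.32 ± 0.09). Both were higher in HPLM in all 3 lines, with edgeR adjusted p-values of 0.381. MRPL52, also without a bacterial counterpart, was higher in all 3 lines as well (0.29 ± 0.09), as were MRPL1 (0.36 ± 0.13) and MRPL30 (0.24 ± 0.09). In MRPL1 the log2 ratio was 0.63 in HSC3, 0.38 in HSC4 and 0.07 in SAS, so HSC3 gave much of its value.

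MRPS18B, an S18 paralog of the small subunit, was at 206, 127 and 104 CPM in DMEM and at 257, 147 and 152 CPM in HPLM. It was higher in HPLM in all 3 lines (0.36 ± 0.10, SE), with an adjusted p of 0.389 by the edgeR quasi-likelihood test. Of its 34 transcripts, 30 were not in the primary-assembly annotation of GENCODE 29, the only one searched. These held between 2.86% and 6.64% of the MRPS sum. Whether they are annotated elsewhere was not tested. In HSC3 in DMEM they held 5.94% of an MRPS sum of 2969 CPM, where the gene itself was at 206 CPM. So they made up most of the gene's estimate. Its leading transcript, of protein-coding type, held between 7.85% and 10.6% of the gene. MRPS17 was at 67.0, 50.9 and 33.3 CPM in DMEM and at 83.6, 64.6 and 40.1 CPM in HPLM (0.31 ± 0.09), and each line again was higher in HPLM. MRPS28 was at 98.9, 91.5 and 125 CPM in DMEM and at 144, 109 and 140 CPM in HPLM (0.32 ± 0.11). MRPS33 (0.23 ± 0.11) and MRPS10 (0.23 ± 0.11) followed. In MRPS33 the log2 ratio was 0.31 in HSC3, -0.01 in HSC4 and 0.40 in SAS. MRPS34, which has no bacterial counterpart, went the other way at 140, 124 and 180 CPM in DMEM and 132, 110 and 144 CPM in HPLM (-0.19 ± 0.09), lower in all 3 lines. MRPS18A was also lower in all 3 lines (-0.14 ± 0.09). None of these passed the test. Members of known special role lay near 0: MRPL12 at 0.03 ± 0.11, MRPL58 at 0.03 ± 0.18 and MRPS36 at 0.05 ± 0.10, while MRPS12 was at 0.16 ± 0.11, MRPS18C at 0.12 ± 0.12 and MRPS30 at 0.16 ± 0.10. In MRPL58 the lines went apart, with log2 ratios of 0.04, 0.50 and -0.44.

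Other genes of mitochondrial translation did not share the tilt uniformly. Of the 5 mitoribosomal subunits with other symbols, 5 had fitted values above 0, with a median of 0.09. They include DAP3, the GTP-binding small-subunit protein, at 0.12 ± 0.09, and GADD45GIP1, a large-subunit protein, at 0.13 ± 0.08. Of 22 tested genes of mitoribosome assembly and rRNA modification 11 were above 0, with a median of -0.01. MTERF3, which acts in large-subunit biogenesis, had the smallest p of that list and was higher in HPLM in all 3 lines (0.43 ± 0.09, edgeR adjusted p = 0.362), followed by the GTPase GTPBP10 (0.21 ± 0.10). Of 17 tested translation factors 11 were above 0, with a median of 0.05. The peptide deformylase PDF (-0.34 ± 0.12) and OXA1L, the insertase that receives the nascent chains (-0.38 ± 0.15), were lower in all 3 lines. Of 13 tested regulators of mitochondrial transcription and biogenesis 8 were above 0, with a median of 0.04. YY1 itself was at -0.14 ± 0.09 and MYC at 0.28 ± 0.17. The edgeR test called 0 genes of each of these lists, and at an unadjusted p under 0.05 it had 0, 1, 0 and 0 genes higher and 0, 0, 2 and 0 lower in the order given.

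The mRNAs of mitochondrial DNA, which these ribosomes translate, differed by line. Their median log2 ratio was -0.30 for HSC3, 0.04 for HSC4 and 0.33 for SAS. A total of 7 of 13 had a fitted value above 0. MT-CO2, a core subunit of cytochrome oxidase, was higher in all 3 lines (0.36 ± 0.11), and MT-ATP6, a subunit of ATP synthase, had log2 ratios of -0.47, 0.12 and -0.18. The ribosomal proteins of the cytosol were above 0 in 74 of 77 genes, with a median of 0.18, RPSA (0.36 ± 0.08) among them. Nuclear subunits of the respiratory chain and ATP synthase were above 0 in 69 of 79 tested genes, with a median of 0.12, as in ATP5MC1 (0.43 ± 0.09) and NDUFA7 (0.48 ± 0.11). The edgeR test called 0 genes of these 3 lists too. At an unadjusted p under 0.05 it had 21 cytosolic ribosomal protein genes higher and 1 lower, 12 respiratory chain genes higher and 1 lower, and 1 mitochondrial mRNA higher and 0 lower. The higher fitted values in HPLM were thus shared with cytosolic ribosomal protein and respiratory chain genes. The mean of the members' line ratios with the trend on transcript length removed was 0.05 for the median MRPL and 0.06 for the median MRPS gene. The members' transcripts are short: the median length was 1050 bases for MRPL and 1266 bases for MRPS genes, against 2087 bases over the genes tested.

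The second comparison was between the lines, where many members changed in both symbol families. Against HSC3, HSC4 had 11 members higher and 28 lower by the edgeR quasi-likelihood test (Benjamini-Hochberg adjusted p under 0.05), 39 of 77, with a median log2 fold change of -0.25. Of all genes 37.4% were called in that contrast, 18.8% higher and 18.6% lower. The MRPL genes had 6 higher and 17 lower, and the MRPS genes 5 higher and 11 lower. Without scaling factors the split was 14 higher and 16 lower, with the median of all genes at 0.13 and that of the members at -0.11. SAS against HSC3 had 27 higher and 8 lower, 35 of 77, with a median of 0.17. Of all genes 39.4% were called there, 18.8% higher and 20.6% lower. The MRPL genes had 19 higher and 3 lower, and the MRPS genes 8 higher and 5 lower. SAS against HSC4 had 33 higher and 6 lower, 39 of 77, with a median of 0.33. Of all genes 41.3% were called there, 20.0% higher and 21.3% lower. The MRPL genes had 22 higher and 2 lower, and the MRPS genes 11 higher and 4 lower. The share of members called was thus somewhat above that of all genes, and the direction was tilted where that of all genes was not. Without scaling factors the shares were closer: 39% of members against 36.6% of all genes, 41.6% against 38.9% and 41.6% against 39.9% in that order. The 2 sets also differ in level and were not matched for it. Median levels by library were between 82.3 and 113 CPM for members and between 14.8 and 16.1 CPM for all genes tested. The contrasts share libraries and are not independent.

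Counts of called members fell when a library of the compared lines was left out. All genes fell too. For HSC4 against HSC3 the count of members was 23 without the DMEM or the HPLM library of HSC3, 17 without the DMEM and 19 without the HPLM library of HSC4. These were between 22.1% and 29.9% of the members, where between 17.8% and 21.3% of all genes were called. For SAS against HSC3 it was 23 without the DMEM library of HSC3 and 18 without the DMEM library of SAS (29.9% and 23.4% of members, 22.6% and 20.5% of all genes). For SAS against HSC4 it was 23 and 24 without the DMEM and HPLM libraries of HSC4, and 22 and 25 without those of SAS, between 28.6% and 32.5% of members against between 20.3% and 24.5% of all genes. Such a fit leaves 1 library in a line, which is assumed to vary like the others.

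The order of the lines was counted over the libraries, too. Both HSC4 libraries lay below the 4 others in 38 members (24 MRPL and 14 MRPS), where 20.2% of all genes did so. These levels are TMM-scaled, and the scaling factors were largest in HSC4 (1.091 in DMEM and 1.046 in HPLM), which lowers its levels. The order without scaling factors was not counted. Both SAS libraries lay above the 4 others in 36 members (23 MRPL and 13 MRPS), where 21.3% of all genes did so. HSC3 was highest in 14 members (19.6% of all genes) and lowest in 14 (18.9%), and HSC4 was highest in 7 (20.9%). SAS was lowest in 2 members, MRPS17 and MRPS24, where 21.8% of all genes had SAS lowest. HSC4 was also lowest in 57.1% of the cytosolic ribosomal protein genes and 51.9% of the respiratory chain genes, so that order was not particular to the mitochondrial ribosome. In the same 2 lists SAS was highest in 36.4% and 27.8%, against 46.8% of the members. SAS was lowest in 2.6% and 6.33% of them, so its being seldom lowest was shared as well. Median log2 fold changes of HSC4 over HSC3 were -0.46 and -0.39 in those lists, and of SAS over HSC4 0.51 and 0.38. Assembly genes had a median of 0.21 in HSC4 over HSC3, with 8 of 22 higher and 3 lower by the edgeR test, where the members' median was below 0. Their medians in SAS over HSC3 and SAS over HSC4 were 0.36 (10 higher and 2 lower) and 0.26 (8 higher and 3 lower), above 0 as in the members. The difference between the lists was not tested.

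Between HSC4 and HSC3 the largest called differences were in MRPL48, MRPL16, MRPL40 and MRPS18A. MRPL48 (chr11:73787316-73865133, GRCh38), a subunit without a bacterial counterpart, was at 42.8 and 41.5 CPM in the HSC3 libraries (DMEM, then HPLM), at 132 and 131 CPM in HSC4 and at 82.8 and 87.6 CPM in SAS. The lines did not overlap. It rose by 1.64 ± 0.11 (log2, SE) in HSC4 over HSC3, with an adjusted p of 0.000645 by the edgeR test. MRPL16 (chr11:59806135-59810872), whose bacterial counterpart lies near the peptidyl transferase centre, was at 27.5 and 28.0 CPM in HSC3, at 81.8 and 72.4 CPM in HSC4 and at 66.5 and 58.2 CPM in SAS, and rose by 1.47 ± 0.12 (edgeR adjusted p = 0.00104). MRPL40 (chr22:19431902-19436075) was at 81.5 and 83.7 CPM in HSC3 and at 33.1 and 31.9 CPM in HSC4, with SAS at 33.5 and 33.0 CPM. It changed by -1.35 ± 0.11 in HSC4 and by -1.31 ± 0.11 in SAS, with edgeR adjusted p-values of 0.00105 and 0.000922, so HSC3 stood alone. MRPS18A (chr6:43671303-43687791) was at 34.4 and 32.7 CPM in HSC3, 89.0 and 81.1 CPM in HSC4 and 76.6 and 66.8 CPM in SAS. It rose by 1.34 ± 0.11 in HSC4 (edgeR adjusted p = 0.00105).

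Between SAS and HSC3 the list was led by MRPL2, MRPL40, MRPS10 and MRPL9. MRPL2 (chr6:43054029-43059806), the counterpart of a bacterial protein at the core of the large subunit, was at 41.7 and 56.6 CPM in HSC3, 111 and 122 CPM in HSC4 and 163 and 147 CPM in SAS. It was the member with the widest range, 3.90 times from the lowest to the highest library, and rose by 1.67 ± 0.16 in SAS (edgeR adjusted p = 0.00132). MRPS10 (chr6:42206801-42217865) was at 22.4 and 30.2 CPM in HSC3, 54.9 and 57.2 CPM in HSC4 and 57.8 and 67.2 CPM in SAS, and rose by 1.26 ± 0.13 (edgeR adjusted p = 0.00169). MRPL9 (chr1:151759643-151763564) was at 68.1 and 84.8 CPM in HSC3, 120 and 117 CPM in HSC4 and 192 and 173 CPM in SAS, and rose by 1.26 ± 0.14 (edgeR adjusted p = 0.00205). In all of these HSC3 was the lowest line, the reverse of MRPL40.

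Between SAS and HSC4 the largest were MRPL36, MRPS30, MRPL42 and MRPL30, all higher in SAS. MRPL36 (chr5:1798386-1801366), a very small large-subunit protein with a bacterial counterpart, was at 192 and 218 CPM in HSC3, at 89.9 and 89.6 CPM in HSC4 and at 308 and 289 CPM in SAS. It rose by 1.73 ± 0.12 in SAS over HSC4 (edgeR adjusted p = 0.000593). MRPS30 (chr5:44808925-44820428) was at 67.4 and 76.0 CPM in HSC3, 40.3 and 49.8 CPM in HSC4 and 112 and 113 CPM in SAS, and rose by 1.33 ± 0.12 (edgeR adjusted p = 0.0011). MRPL42 (chr12:93467488-93516213) rose by 1.31 ± 0.11 and MRPL30 (chr2:99181079-99197626) by 1.09 ± 0.11, with edgeR adjusted p-values of 0.000809 and 0.00146. In each of the 4 the HSC4 libraries were lowest and the SAS libraries highest. MRPS36, of the oxoglutarate dehydrogenase complex, had lines that did not overlap: it was at 18.8 and 18.3 CPM in HSC3, 29.8 and 29.6 CPM in HSC4 and 39.7 and 45.6 CPM in SAS.

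Since the members lie on many chromosomes, each was set beside the 10 tested genes on either side of it, members left out. That gave 20 neighbours for all members but MRPL28 (19) and MRPL41 (16), which had fewer genes on 1 side. A member's difference between lines went with the median difference of its neighbours. Across the 77 members Pearson's r was 0.86 in HSC4 over HSC3, 0.72 in SAS over HSC3 and 0.77 in SAS over HSC4 (Spearman's rho 0.75, 0.60 and 0.72). For HPLM over DMEM it was -0.06. Over all tested genes with neighbours r was 0.34, 0.31 and 0.28 for the lines (rho 0.49, 0.44 and 0.40) and 0.09 for the medium. These correlations are across genes, which are not independent replicates, share the same libraries and partly share neighbours, and are given as a description. Over the 45 members more than 5 Mb from any other they were 0.76, 0.72 and 0.78. In DMEM libraries alone they were 0.85, 0.71 and 0.75, and in HPLM libraries alone 0.86, 0.71 and 0.75. Cytosolic ribosomal protein genes gave 0.78, 0.78 and 0.58 and respiratory chain genes 0.72, 0.76 and 0.72, so the relation was not particular to the mitochondrial ribosome. Called members had the sign of their neighbours' median in 35 of 39, 29 of 35 and 33 of 39 cases (89.7%, 82.9% and 84.6%). Over all called genes the shares were 81.2%, 76.0% and 74.9%.

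**Figure D4:**
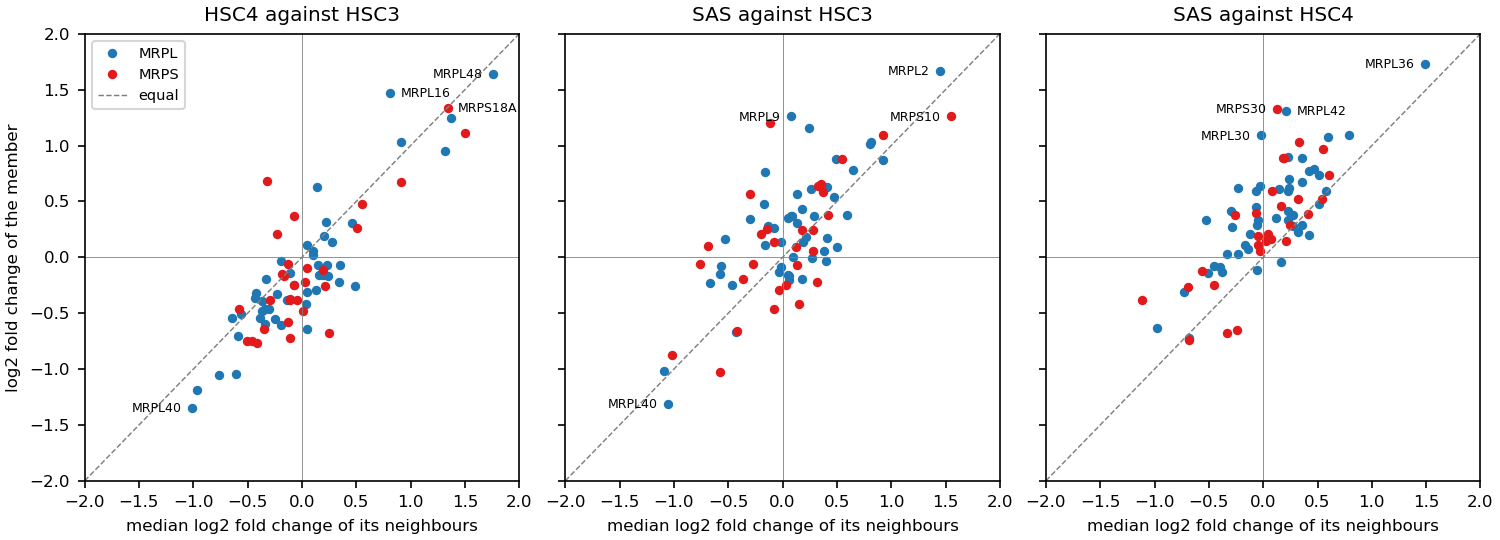
Log2 fold change of each member against the median log2 fold change of its neighbouring tested genes (20 for all but MRPL28 and MRPL41), for the 3 line contrasts, with MRPL in blue, MRPS in red and a dashed line of equality. Points run along the line (Pearson's r 0.86, 0.72 and 0.77), with MRPS30, MRPL42 and MRPL30 above it in SAS against HSC4.

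A cluster on chromosome 6, picked here after its values were seen, shows the pattern. MRPS10, MRPL2, MRPS18A and MRPL14 lie within 1.92 Mb (chr6:42206801-44127457) and had log2 fold changes of 1.11, 1.25, 1.34 and 0.95 in HSC4 over HSC3, and of 1.26, 1.67, 1.09 and 0.87 in SAS over HSC3, all called by the edgeR test. In HSC4 over HSC3 20 of 20 neighbours of each were higher as well. A running median of 21 genes stayed above 0.5 from 36871870 to 47627263 on that chromosome, a span of 80 tested genes of which 77 were higher and 68 called higher, with a median of 1.29. In SAS over HSC3 the span held 71 tested genes, 66 higher and 57 called higher, with a median of 1.26. Both spans were drawn from these same fold changes, so most genes inside had to be higher. The counts describe the spans and are no test. In each of the 2 contrasts 18.8% of all genes were called higher. Nearer the end of the same arm MRPS18B (chr6:30617709-30626395) went the other way, at -0.75 ± 0.12 in HSC4 and -0.87 ± 0.12 in SAS (edgeR adjusted p = 0.00614 and 0.00365). Its neighbours' medians were -0.51 and -1.02. In SAS over HSC3 0 of its 20 neighbours were higher. The S18 paralogs MRPS18A and MRPS18B thus changed in opposite directions between lines, each with its surroundings. Members that lie near each other did not always change alike. The other cluster of 4 members, MRPL49, MRPL11, MRPL21 and MRPL48, spans 8.74 Mb on chromosome 11. Its log2 fold changes in HSC4 over HSC3 were -0.03, -0.07, -0.22 and 1.64.

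MRPL48, MRPL36 and MRPL40 lay in spans of the same kind, picked here after their values were seen. These spans too were drawn from the fold changes counted in them. The neighbours of MRPL48 had a median of 1.76 in HSC4 over HSC3, and its span covered 10.2 Mb with 56 tested genes, 50 of them higher and 45 called higher. For MRPL36, near the end of chromosome 5, the neighbours' median was 1.49 in SAS over HSC4, and the span covered 14.4 Mb with 44 tested genes, 40 of them higher and 29 called higher. For MRPL40 the neighbours' medians were -1.01 in HSC4 and -1.05 in SAS over HSC3. Its span in HSC4 covered 14.2 Mb with 113 tested genes, 100 of them lower and 77 called lower. Over all genes, 18.8% were called higher in HSC4 over HSC3, 20.0% higher in SAS over HSC4 and 18.6% lower in HSC4 over HSC3. Not all members went with their surroundings. In SAS over HSC4 MRPS30 was at 1.33 with a neighbours' median of 0.13, MRPL42 at 1.31 with 0.21 and MRPL30 at 1.09 with -0.02. In SAS over HSC3 MRPL9 was at 1.26 with 0.08 and MRPS36 at 1.20 with -0.12. These stood apart from the genes around them in the contrast named.

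**Figure D5:**
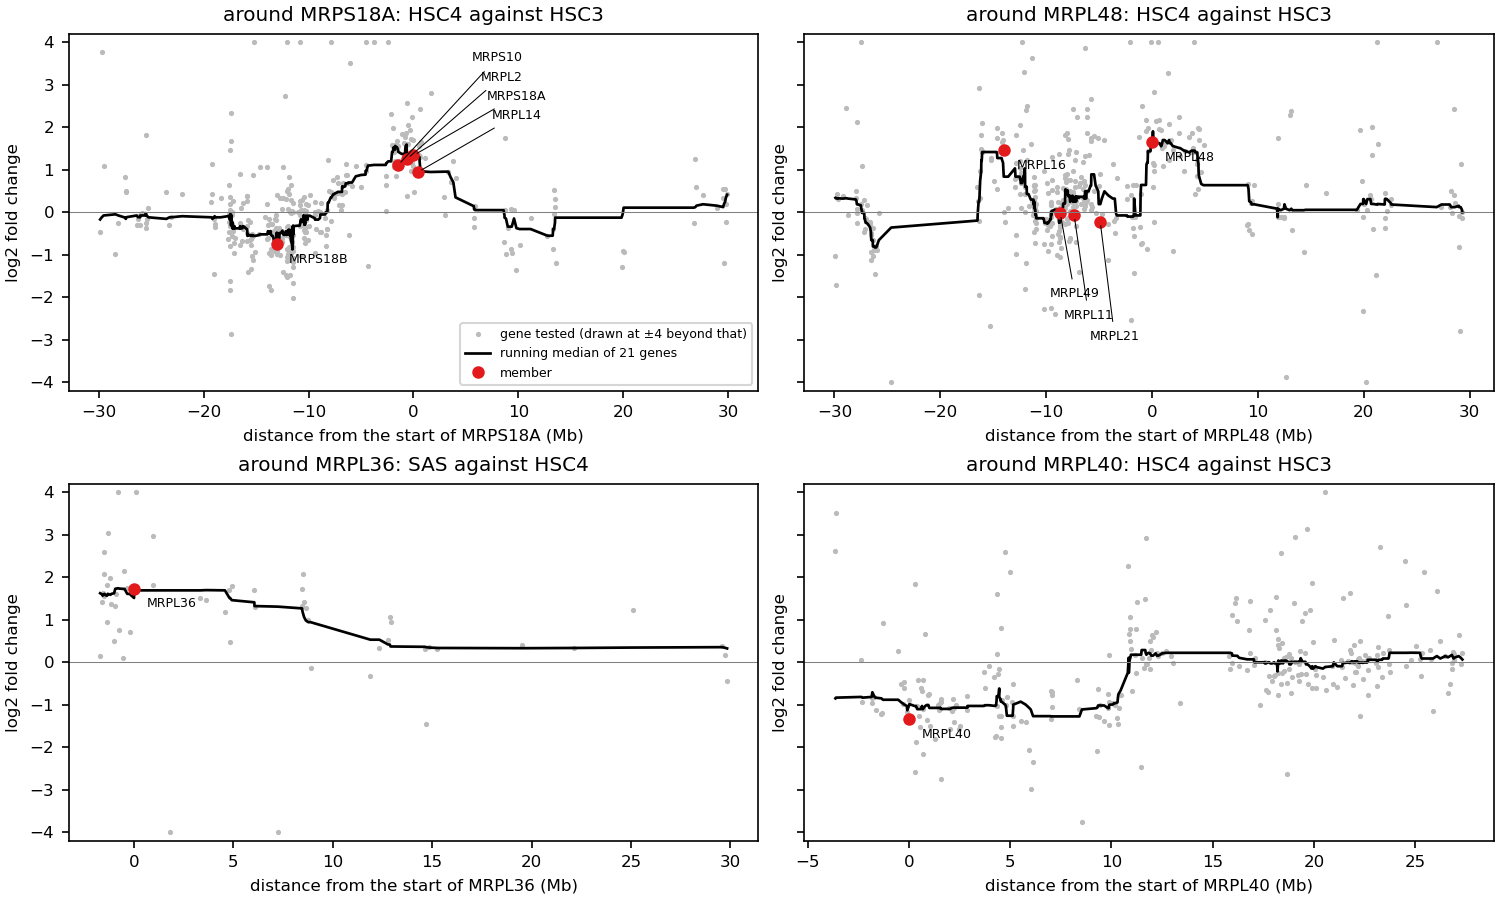
Log2 fold change of tested genes by distance (Mb) from the start of MRPS18A, MRPL48, MRPL36 and MRPL40, in the contrast named over each panel, with a running median of 21 genes (black) and members in red. The 4 members around MRPS18A sit on a raised stretch of the running median and MRPS18B on a lowered one.

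Some members share a start region with a gene on the other strand. In GENCODE 29, 19 of 77 members (24.7%) had the start of another protein-coding gene at most 1000 bases away in a head-to-head arrangement, against 8.83% of 19909 protein-coding genes. The share was 33.3% for MRPL (16 genes) and 10.3% for MRPS genes (3 genes). Partners include genes of the respiratory chain, NDUFS6 beside MRPL36 and NDUFB5 beside MRPL47, the mitochondrial DNA helicase TWNK beside MRPL43, and the chaperonin subunit TCP1 beside MRPL18. MRPL46 and MRPS11 (chr15:88459476-88480773) are each other's partners, with starts 34 bases apart. MRPL46 was at 31.5 and 35.3 CPM in HSC3, 67.8 and 68.3 CPM in HSC4 and 40.2 and 42.6 CPM in SAS. MRPS11 was at 44.2 and 42.6 CPM, 71.7 and 66.0 CPM and 36.2 and 46.5 CPM. Both were highest in HSC4, at 1.03 ± 0.11 and 0.67 ± 0.15 over HSC3 (edgeR adjusted p = 0.00209 and 0.0183), where the neighbours' median was 0.91. MRPL36 and NDUFS6 went together too, with -1.19 and -1.34 in HSC4 over HSC3. Over 17 distinct pairs with both genes tested, r was 0.67 for HSC4 over HSC3, 0.21 for SAS over HSC3, 0.66 for SAS over HSC4 and 0.11 for the medium, as a description over pairs that share libraries. The partners had the same sign in only 9, 11, 13 and 9 of the 17 pairs in that order. Whether strand was used in quantification is not given in the sources used here, so reads where such genes overlap may be shared.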

How the data were processed

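The authors deposited 1 table with an expected count (an estimated count) per transcript, as scaled TPM, made with kallisto on hg38 after FastQC, per the submitters' processing notes. Tool versions were not stated there. Scaled TPM are length-corrected, so they are not read numbers. Of 161149 rows, 1312 repeats of a transcript (10 of MRPL23) were counted once and 6878 transcripts without a symbol left out. Sums per symbol were rounded. A further 71 symbols resemble the members' (pseudogenes, antisense genes) and were not matched; the most abundant held 0.13% of the members' total.

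Genes passing filterByExpr (minimum count 10, total 15) were tested by the edgeR quasi-likelihood test with line and medium as terms (TMM, edgeR 4.0.16, R 4.3.3, limma 3.58.1, DESeq2 1.42.0), called at a Benjamini-Hochberg adjusted p under 0.05. The fit was checked on simulated data. The replicate number is the line, which pairs the libraries: deviations from the medium mean correlated at 0.835, 0.845 and 0.855 within HSC3, HSC4 and SAS. Ratios within a line come from log2 CPM (prior count 2). Positions are from GENCODE 29.

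The members and lists were chosen with earlier results of these data known. Named were the 6 MRPL and 6 MRPS genes of smallest p for the medium, the 4 called members of largest fold change per line contrast, the 3 highest and 3 lowest of each symbol family, 8 members of special role, 2 genes of smallest p per other list and 4 members by transcript share. Of the genes so chosen, 1 is not reported here. Others were named after their values were seen.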

Additional observations from a re-analysis of the deposited data

How the results depend on the processing

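For HPLM against DMEM the edgeR test called 1 gene of all tested. It called 0 with upper-quartile scaling, 0 without the low-count filter and 0 with no replicate block; leaving out 1 line gave between 0 and 4 (4 without HSC3, 0 without HSC4, 0 without SAS). DESeq2 called 127 and limma-voom 9. Of the members, DESeq2 called 1, MRPL33; the other settings called 0. The replicate block changed no other call, and the cause of the differences between tools was not tested. The median log2 fold changes for the medium stayed above 0 in all settings, between 0.03 and 0.12 for MRPL and between 0.06 and 0.12 for MRPS genes. Leaving out 1 library gave between 17 and 33 called members for HSC4 against HSC3, 18 and 32 for SAS against HSC3, and 22 and 41 for SAS against HSC4, with fewer samples in the fit. Of all genes the same fits called between 17.8% and 34.9%, 20.5% and 36.4%, and 20.3% and 40.0%. Leaving out scaling factors moved the median of all genes by 0.13 in HSC4 over HSC3 and by -0.16 in SAS over HSC4. The mean MRPL over MRPS ratio of 1.95 became 1.15 when medians of log2 CPM replaced the sums. Medians do not count the larger number of MRPL genes and do not weigh single high genes. In the ratio of the MRPL to the MRPS median CPM, the SAS libraries did not stand apart from the other lines. Each median by itself was highest in SAS, at 117 and 119 CPM for MRPL and 99.2 and 111 CPM for MRPS genes (DMEM, then HPLM). Of the single members named, 287 values kept direction and side of the threshold, and 1, MRPL33, passed it. Scaled TPM carry no read numbers, so no counting interval is given, and 1 library per line and medium limits every value.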

Other observations

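The table gives transcripts, so the make-up of each member was followed. Transcripts of protein-coding type held between 85.2% and 87.2% of the members' estimated counts, between 88.7% and 90.4% for MRPL and between 78.7% and 82.4% for MRPS genes. Between 2.86% and 6.64% of the MRPS counts lay in MRPS18B transcripts not in the primary-assembly annotation of GENCODE 29, which have no type here. In 4 members the share of the leading transcript moved most, the same way in all 3 lines; this has no test. MRPS17 has 2 transcripts in the table. Its leading one held 89.1%, 86.1% and 89.0% in DMEM and 82.8%, 71.0% and 78.6% in HPLM in HSC3, HSC4 and SAS, so the minor transcript gained in every line. In MRPS28 the leading share was 58.5%, 64.2% and 64.5% in DMEM and 50.7%, 62.9% and 56.9% in HPLM. It went the other way in MRPL20, at 76.9%, 88.4% and 73.2% in DMEM and 93.9%, 95.9% and 74.4% in HPLM. In MRPS34 it was 62.7%, 56.8% and 63.2% in DMEM and 72.9%, 61.7% and 64.8% in HPLM. Estimates for transcripts of 1 gene share reads, so these shares are less certain than the gene's sum. In MRPL2, MRPL10 and MRPS18C the leading transcript is of retained-intron type, with mean shares of 44.5%, 47.1% and 36.7%. In MRPL40 and MRPS16 it is a processed transcript, with 60.3% and 31.2%. In MRPL11, MRPL30 and MRPS25 it is of nonsense-mediated decay type, with 47.9%, 47.9% and 38.2%.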
